A study of Homo sapiens with 24 samples.

Results

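Silencing of the long noncoding RNA TAPIR-2 was compared with a scrambled control in LNCaP cells 24 h after transfection. LNCaP is an established prostate cancer cell line that keeps an intact p53 gene. The comparison rests on 8 of the 24 samples of the series, 4 of the siRNA si-A2 against TAPIR-2 and 4 of the scrambled siRNA si-SCRL, all chosen by their labels. The cells came from ATCC and were grown in RPMI-1640 medium with 10% fetal bovine serum. Both siRNAs were Stealth duplexes, the control being a negative duplex of medium GC content, and both were delivered by electroporation with a microporator, so transfection itself is common to the groups. Each sample was a biological replicate whose total RNA, isolated with TRIzol, was labelled with Cy3 and read on its own one-colour Agilent 8 x 60K v2 array. A single siRNA represents the knockdown, and bulk RNA cannot tell fewer cells in a state from less RNA per cell. The 24 h arrays of si-A1, an siRNA against the transcript TAPIR-1, were normalized and fitted together with these 8. They therefore share in the standard errors and p-values of the main limma fit.

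p53 is a transcription factor that becomes stable after stress and switches on genes for cell cycle arrest, DNA repair and cell death. Its target CDKN1A encodes p21, an inhibitor of cyclin-dependent kinases. When p21 keeps the RB family of proteins active, the DREAM complex and RB hold down the genes of DNA replication and mitosis, many of which carry CCAAT boxes, E2F sites or CHR elements in their promoters.

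Values are log2 intensities after quantile normalization between the arrays of the time point, and a log2 fold change is the si-A2 level minus the si-SCRL level. The median intensity of an array before normalization lay between 24.4 and 54.4 for si-SCRL and between 26.7 and 48.5 for si-A2, and 58.5% to 68.3% and 59.9% to 66.1% of spots were rated well above background. No spot was saturated, and the number of arrays limits the precision. Replicates 1 and 2 of each siRNA lay on slide 1 and replicates 3 and 4 on slide 2. All 11 markers of luminal prostate cells on a fixed list were measured well above background on all 8 arrays, and their summed level was 15.23 to 15.33 for si-SCRL and 15.18 to 15.41 for si-A2. Markers of basal, stromal, endothelial and blood cells, which a pure line should lack, were summed likewise, and none of their measured genes was called in either direction. Most of these markers were nevertheless well above background on some array. The sums stayed between 8.25 and 13.04 on every array except for the blood cell list, whose sum of 12.85 to 15.36 for si-SCRL and 14.92 to 15.27 for si-A2 was carried by the probe of the B cell gene CD79A at 12.72 to 15.33 on the 8 arrays, lowest in si-SCRL replicate 3. Of the 8 measured blood cell markers 7 were well above background on all 8 arrays, all 8 had a log2 fold change above 0, and their median was 0.28, from 0.10 for CD3E to 0.83 for CD68. Only NGFR of the basal list and CLDN5 and EMCN of the endothelial list were well above background on 0 of the 8 arrays. The part of these markers in the results below was not tested.

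TAPIR-2 is annotated on chromosome 2 from 1620510 to 1625419 (GRCh38). In RefSeq the long noncoding RNA LALTOP, from 1484902 to 1625419 on the minus strand, shares this end. The 300 bases around the start of LALTOP (chr2:1625370-1625669, GRCh38.p14, 250 bases before to 50 after the start) are shown as the sequence at the 5′ end of the targeted locus. They hold none of the 6 motifs searched below, so no base is in capitals.
LALTOP: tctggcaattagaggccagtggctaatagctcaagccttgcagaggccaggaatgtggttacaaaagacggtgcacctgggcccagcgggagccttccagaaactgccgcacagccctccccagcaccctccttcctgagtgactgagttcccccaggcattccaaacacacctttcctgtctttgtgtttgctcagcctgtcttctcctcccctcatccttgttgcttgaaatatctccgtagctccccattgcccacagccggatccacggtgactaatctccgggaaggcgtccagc
The array carries 1 probe with the accession of TAPIR-2. Its level was 5.08, 4.98, 5.28 and 4.81 in si-SCRL replicates 1 to 4 and 4.70, 3.12, 4.61 and 3.82 in si-A2 replicates 1 to 4. Every si-A2 array lay below every si-SCRL array, and si-A2 replicates 2 and 4 were not well above background. The log2 fold change was -0.98 ± 0.33 (SE, n = 4 per group), with an exact permutation p of 0.0286 (two-sided), which is the lowest that 4 against 4 arrays can give. It missed the limma threshold across all genes (adjusted p = 0.245). The change was -1.13 within slide 1 and -0.83 within slide 2. Without si-A2 replicate 2 it was -0.62, and with normexp background correction, which compresses dim signals, -0.26.

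Genes near TAPIR-2 were examined next. Within 2000000 bases RefSeq lists 67 genes, of which 16 were measured above the negative control threshold and 0 were called. Their log2 fold changes ran from -0.39 for SNTG2, which was dim in both groups, to 0.68 for PXDN, which encodes a peroxidase of the extracellular matrix. PXDN was well above background on 2 of 4 arrays in each group, and the lowest unadjusted limma p among the 16 was 0.104, for TMEM18. The small ribosomal subunit gene RPS7 changed by 0.05 ± 0.15 (SE, n = 4 per group).

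Most of the genes called after si-A2 were lower than in the control. Calls came from limma with an additive slide effect and required both a Benjamini-Hochberg adjusted p under 0.01 and a log2 change of 0.5 or more in either direction. Of 36639 genes above the negative control threshold, 28 (0.0764%) were called higher and 303 (0.827%) lower. At an unadjusted limma p below 0.05 the split was more even, with 1831 higher and 2229 lower, and 43.1% of all genes were below 0. With single arrays left out between 13 (without si-A2 replicate 4) and 34 genes were called higher. With the additional filter that a probe's interquartile range over the arrays reach 0.5, 15186 genes were tested, of which 5 (0.0329%) were called higher and 210 (1.38%) lower. The median log2 fold change of all genes was 0.05 and its quartiles were -0.16 and 0.24, so the calls stand out from a body of genes near 0. Of the 303, 175 (57.8%) belonged to 6 lists of proliferation genes and 128 did not. These lists are not complete and were chosen with earlier results of these data known, so counts over them are a description. The 128 held 20 without a RefSeq name and also cell cycle genes such as DSN1, KNTC1, MASTL, CDKN2C, RBL1 and TK1. The paper names these 6 among its cell cycle genes after TAPIR-1 knockdown. No gene called higher was on those lists. With only the 2 compared groups in the fit 2 genes were called higher and 150 lower, and within either slide alone limma called 0, with 1322 higher and 1507 lower at an unadjusted p below 0.05 on slide 1 and 719 and 1221 on slide 2. The median of the called log2 fold changes was 1.18 for increases and -1.56 for decreases.

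**Figure D1:**
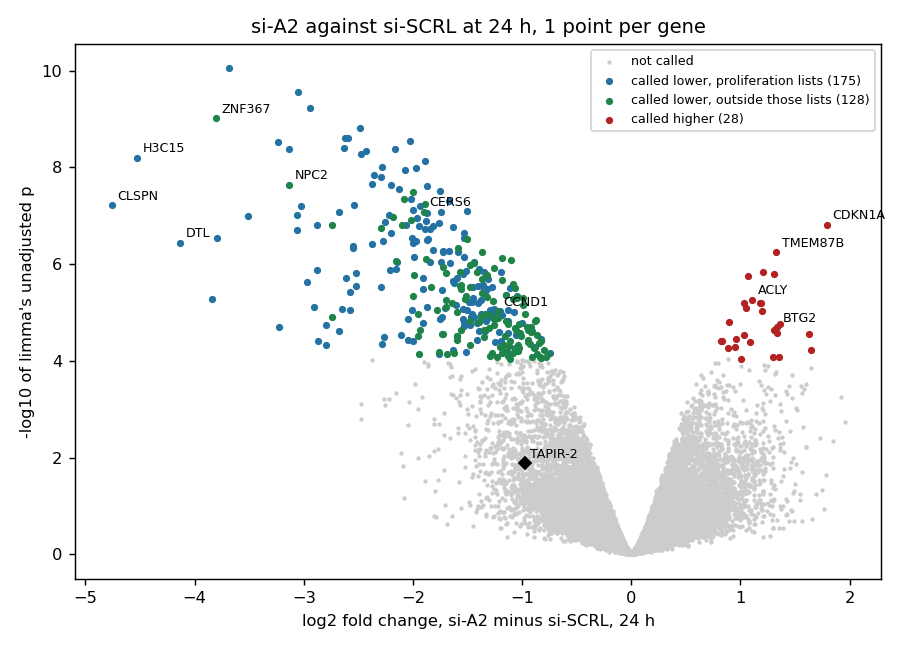
The horizontal axis gives the log2 fold change of si-A2 against si-SCRL at 24 h and the vertical axis -log10 of limma's unadjusted p for each of 36639 genes. Blue points are the 175 called decreases on the proliferation lists, green points the 128 other called decreases and red points the 28 called increases, while TAPIR-2, the black diamond, lies among the genes not called.

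The largest decreases were in genes of DNA replication and chromatin. Claspin (CLSPN), an adaptor that lets the ATR kinase activate CHEK1 at stalled forks, read 7.28, 7.57, 7.82 and 7.46 after si-SCRL and 2.94, 2.66, 3.21 and 2.28 after si-A2. All its si-A2 arrays failed to rise well above background, so the 27.1-fold decrease (adjusted p = 6.4e-05 in limma) is approximate. Over 18 alternative settings, taken up in the closing section, its log2 fold change ran from -4.95 to -1.81. The histone H3 gene H3C15 read 13.38, 13.12, 13.53 and 12.21 after si-SCRL and 9.11, 8.52, 8.64 and 7.86 after si-A2, a 23.1-fold decrease (adjusted p = 1.5e-05 in limma). H3 genes are near-identical copies, so which of them the probe reads is uncertain. DTL, the substrate receptor of a ubiquitin ligase that clears replication licensing factors, read 6.62, 6.86, 7.02 and 7.10 after si-SCRL. After si-A2 it read 3.26, 1.81, 2.85 and 3.15, with no array well above background. Its 17.6-fold decrease (adjusted p = 0.00018 in limma) is therefore approximate, and its log2 fold change ran from -4.34 to -1.40 over the same settings. SHCBP1, a protein of the midbody in dividing cells, read 5.54 to 6.82 after si-SCRL and 1.77 to 2.88 after si-A2. With no si-A2 array well above background its 14.3-fold decrease is approximate. Its log2 fold change ran from -3.99 to -1.10 over the same settings. In each of these genes the si-SCRL and si-A2 arrays stood far apart, with no overlap, as in nearly all called genes.

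All 6 proliferation lists lay low. Of 62 measured replication-dependent histone genes 47 were called lower, against 0.827% of all genes, with a median log2 fold change of -1.63. The S phase list had 27 of 42 called lower (median -1.46), the G2/M list 32 of 54 (median -1.37), the replication machinery 31 of 57 (median -1.34), the mitotic machinery 74 of 134 (median -1.40) and the Fanconi anemia and homologous recombination list 16 of 38 (median -1.17). None of their members was called higher. These lists overlap, and together they hold 317 measured genes. As they were chosen with earlier results of these data known, their direction is a description.

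**Figure D2:**
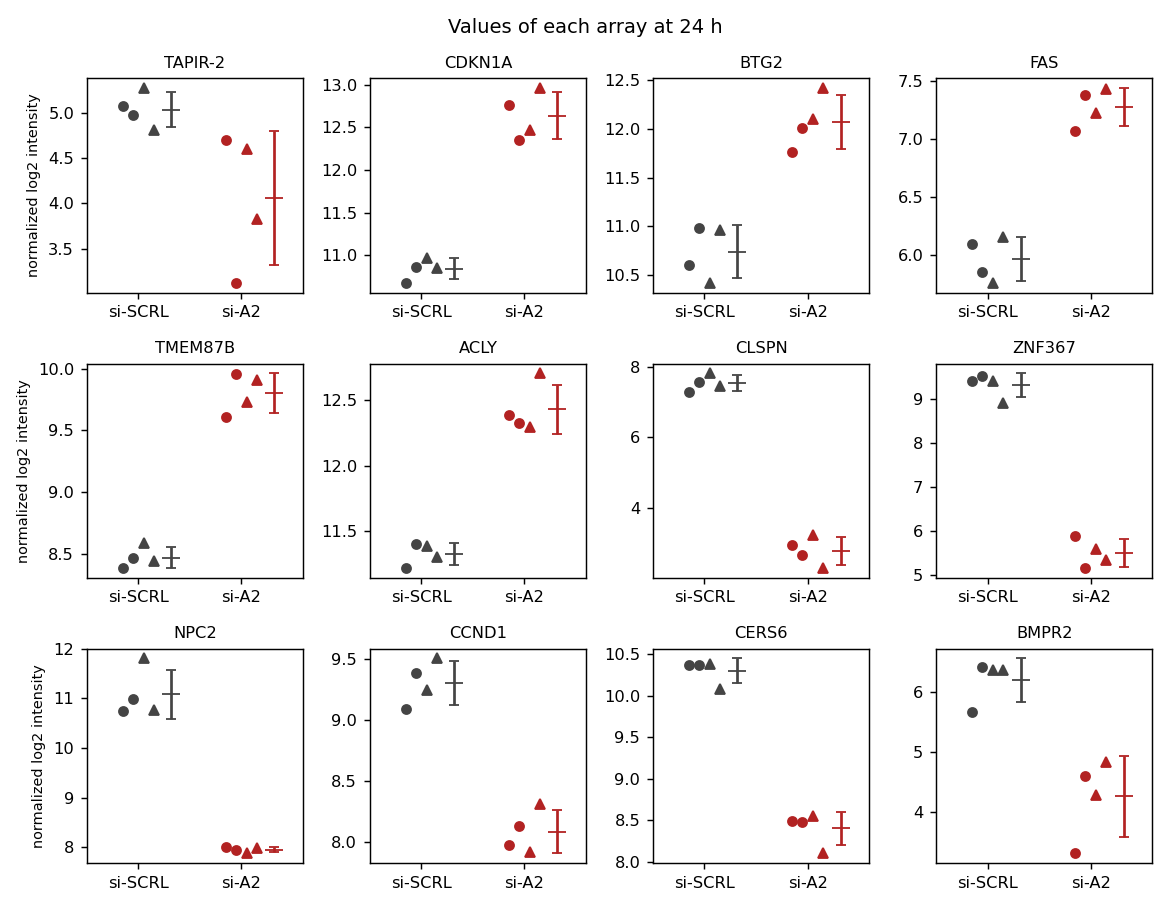
Each panel gives the normalized log2 intensity of 1 gene on the 4 si-SCRL (grey) and 4 si-A2 (red) arrays, circles for slide 1 and triangles for slide 2, with the mean and SD beside them; each panel has its own vertical scale. The groups do not overlap in any of the 12 panels, and the gap is smallest for TAPIR-2. Every panel except TAPIR-2 shows a called gene. All 28 called increases and 302 of the 303 called decreases lack overlap, so the choice of called genes largely fixed this separation.

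Outside the proliferation lists, the largest decrease was in ZNF367, a zinc finger gene, which read 9.40, 9.50, 9.41 and 8.90 after si-SCRL and 5.89, 5.15, 5.59 and 5.34 after si-A2 (14.01-fold lower, adjusted p = 8.8e-06 in limma). NPC2, the lysosomal protein that passes cholesterol to NPC1, followed. It read 10.75, 10.99, 11.80 and 10.76 after si-SCRL and 8.0015, 7.93, 7.88 and 7.97 after si-A2, an 8.77-fold decrease (adjusted p = 3.5e-05 in limma). The si-A2 arrays of NPC2 lay close together, while si-SCRL replicate 3 lay above the other 3 control arrays.

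The 15 largest called decreases outside those lists, among genes with a RefSeq symbol and no overlap between the groups, also held the following genes. FAM111B, a protease of the nucleus, was about 6.69-fold lower, its si-A2 arrays all being near background. Its log2 fold change ran from -2.88 to -0.96 over 18 alternative settings. PCLAF, the PCNA-associated factor, fell from 7.56 ± 0.13 (SD, n = 4) to 5.56 ± 0.21 (SD, n = 4). ATAD5, which helps to unload PCNA from DNA, fell from 6.04 ± 0.11 (SD, n = 4) to 4.06 ± 0.11 (SD, n = 4). EZH2, the methyltransferase of Polycomb complex PRC2, was dim throughout, with 1 si-SCRL array and 0 si-A2 arrays well above background. Its log2 fold change was -1.96 and ran from -2.27 to -0.23 over 17 alternative settings. FAM72A fell by 2.16 on the log2 scale, but its near-identical copies cannot be told apart on the array.

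Other genes among these 15 decreases have varied roles. CERS6, a ceramide synthase, read 10.38, 10.37, 10.38 and 10.08 after si-SCRL and 8.49, 8.47, 8.55 and 8.10 after si-A2, and its other probe fell by 1.97 on the log2 scale against 1.90 for the brightest. BMPR2, a type II receptor for bone morphogenetic proteins, read 5.66, 6.41, 6.36 and 6.36 after si-SCRL and 3.32, 4.61, 4.29 and 4.84 after si-A2 (log2 fold change -1.93 ± 0.27, SE). PAQR4, a membrane protein of a receptor family, fell by 2.29 on the log2 scale, and MPZL3, a membrane protein with an immunoglobulin domain, by 2.08. CCSAP, a centriole and spindle protein, fell by 2.10. KLF11, a zinc finger factor, was about 4.01-fold lower, with 2 of 4 si-SCRL arrays and 0 si-A2 arrays well above background. Its log2 fold change ran from -2.49 to -0.26 over 17 alternative settings.

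**Figure D3:**
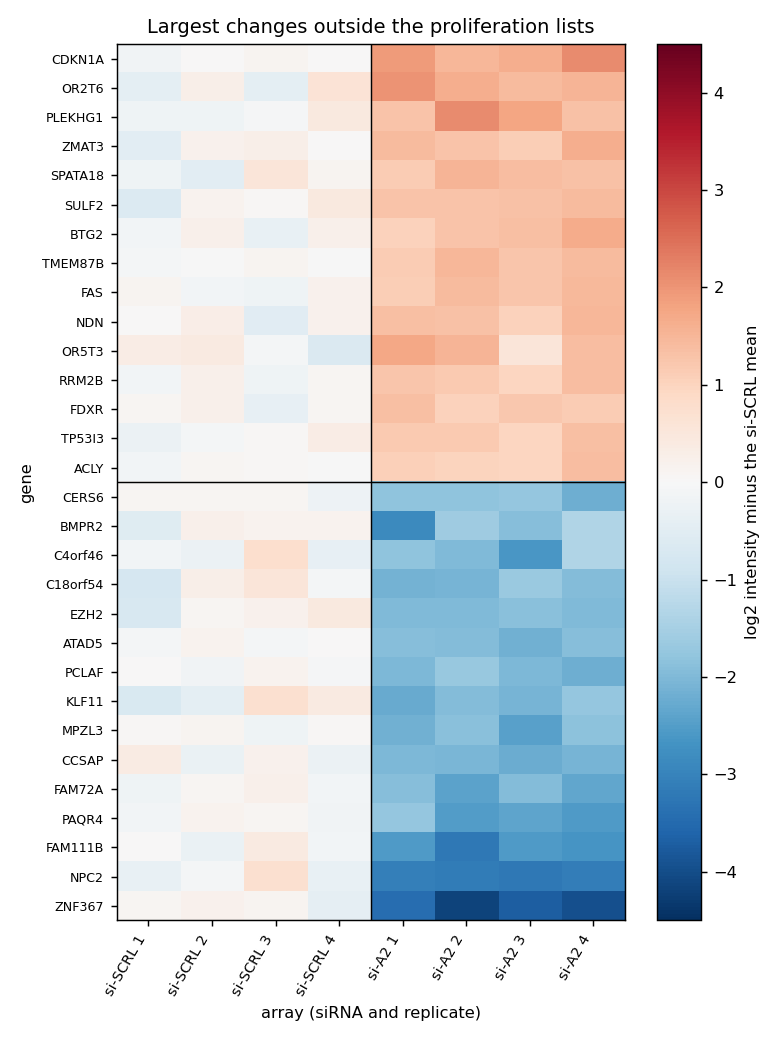
Rows are the 15 largest called increases and the 15 largest called decreases outside the proliferation lists, among genes with a RefSeq symbol and no overlap between the groups. Columns are the 4 si-SCRL and 4 si-A2 arrays at 24 h, and colour is the log2 intensity minus the si-SCRL mean of the gene. The choice of genes without overlap fixes 1 colour for each gene across the 4 si-A2 arrays. The mean differences run from 1.79 for CDKN1A to -3.81 for ZNF367.

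Known p53 targets were prominent among the increases. Of 44 measured genes on the p53 list 10 were called higher and 0 lower, against 0.0764% of all genes called higher, and the median log2 fold change of the list was 0.46 against 0.05 over all genes. Of the 44, 35 had a log2 fold change above 0 and 20 lay wholly above the si-SCRL arrays, where 43.1% of all genes had one below 0 and 3.09% lay wholly above. With the interquartile filter only CDKN1A and FAS of the 10 were called. The list was drawn up with earlier results of these arrays known, so its direction is a description. With only the 2 compared groups in the fit, 1 of the 44 was called higher, and with single arrays left out between 6 (without si-A2 replicate 2 or replicate 4) and 11.

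CDKN1A was the strongest. It read 10.68, 10.87, 10.97 and 10.85 after si-SCRL and 12.76, 12.35, 12.47 and 12.96 after si-A2, a 3.47-fold increase (log2 fold change 1.79 ± 0.15, SE, adjusted p = 0.000102 in limma). BTG2, which slows growth and speeds mRNA decay, read 10.60, 10.98, 10.42 and 10.96 after si-SCRL and 11.76, 12.01, 12.10 and 12.42 after si-A2 (2.52-fold higher, adjusted p = 0.0031 in limma). The death receptor FAS read 6.09, 5.85, 5.76 and 6.15 after si-SCRL and 7.06, 7.38, 7.22 and 7.43 after si-A2 (2.48-fold higher, adjusted p = 0.00051 in limma), and its other 2 probes gave log2 fold changes of 1.0955 and 1.33. In all of these genes the si-A2 arrays stood together above the control arrays on both slides, and all 28 called increases lacked overlap.

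Other called p53 targets serve metabolism, mitochondria and RNA. RRM2B, the p53-inducible subunit of ribonucleotide reductase, was 2.29-fold higher. FDXR, the ferredoxin reductase of mitochondria, was 2.28-fold higher and TP53I3, a quinone oxidoreductase, 2.26-fold. ZMAT3, an RNA-binding zinc finger protein, was 2.58-fold higher, SPATA18, which acts in mitochondrial quality control, 2.55-fold, and SULF2, a heparan sulfate sulfatase, 2.53-fold. TP53INP1, a stress protein of autophagy, was 2.09-fold higher. Among members not called, GADD45A had a log2 fold change of 0.89 and CCNG1 of 0.81, each with no overlap between the groups. MDM2, the ubiquitin ligase that limits p53, stood at 0.02 and PPM1D, a phosphatase that dampens p53, at 0.10, while the apoptosis activator BBC3 stood at 0.34 and PMAIP1 at -0.32. APAF1, the scaffold of the apoptosome, went the other way at -1.76 (adjusted p = 0.087 in limma) and had 2 of 4 si-SCRL arrays and 0 si-A2 arrays well above background.

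**Figure D4:**
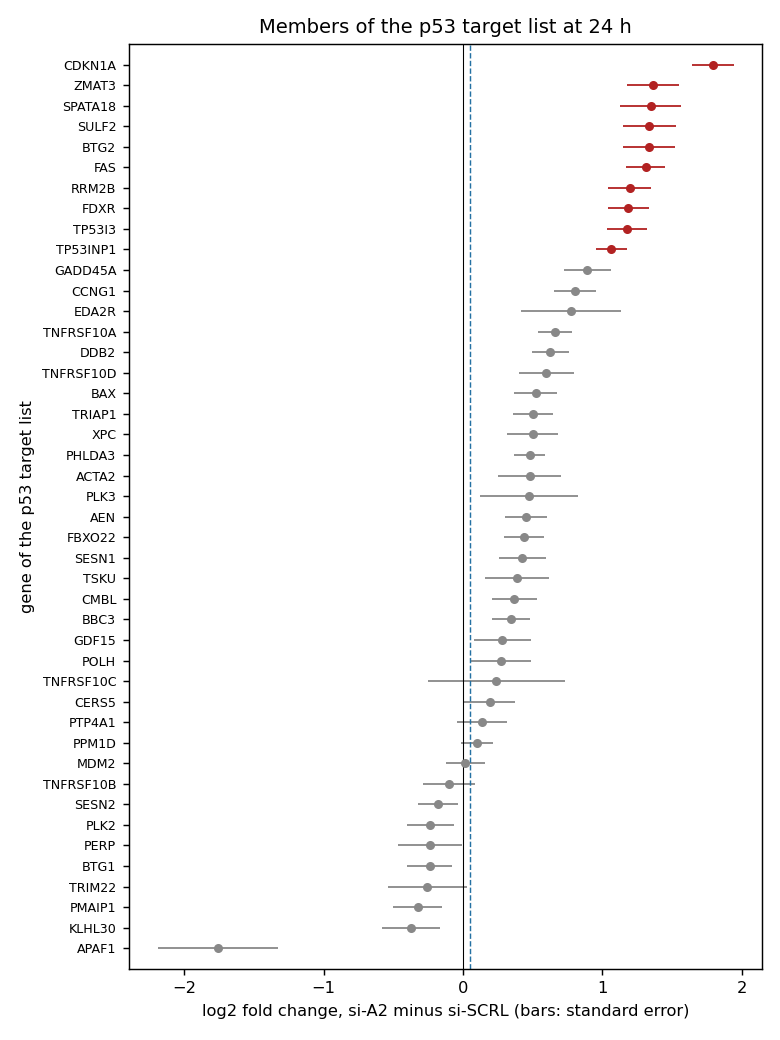
Each point is the log2 fold change of si-A2 against si-SCRL at 24 h of 1 of the 44 measured genes of the p53 target list, with its standard error; red points were called and the dashed line marks the median of all genes, 0.05. Of the 44 points 35 lie above 0, and the 10 called genes are the 10 highest, from TP53INP1 at 1.07 to CDKN1A at 1.79.

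Genes of cell death were examined next. With 0.0764% of all genes called higher and 0.827% lower, a list of this size would mostly hold no call. In the BCL2 family 0 of 16 measured genes were called and the median log2 fold change was 0.07. The pore former BAX was highest at 0.52 and the activator HRK lowest at -0.78 (adjusted p = 0.17 and 0.044 in limma). Of 19 caspase and death signalling genes 0 were called, with a median of -0.05. These lists do not hold every gene of cell death. FAS, counted on the p53 list, was called higher at 1.31. BIRC5, which the paper describes as an apoptosis inhibitor, is on the proliferation lists and was called lower at -1.89.

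The other called increases lay outside the p53 list. TMEM87B, a membrane protein of the Golgi, read 8.39, 8.47, 8.59 and 8.44 after si-SCRL and 9.61, 9.96, 9.73 and 9.91 after si-A2 (2.51-fold higher, adjusted p = 0.00024 in limma), and its other probe gave a log2 fold change of 1.51. NDN, which encodes the growth suppressor necdin, was 2.47-fold higher, with si-SCRL at 9.21 to 10.03 and si-A2 at 10.77 to 11.23. ACLY, the ATP citrate lyase that supplies acetyl-CoA for lipid synthesis, read 11.21, 11.40, 11.38 and 11.30 after si-SCRL and 12.39, 12.33, 12.30 and 12.71 after si-A2 (2.16-fold higher, adjusted p = 0.0012 in limma). It was the only called gene of 20 measured on the fatty acid synthesis list, where FASN stood at 0.13 and SCD at 0.11. The called increases of PLEKHG1, OR2T6, OR5T3 and COLQ concern probes that reached well above background on 0 of the 8 arrays, so no fold is given. PLEKHG1 and OR2T6 are 2 of the 5 genes called higher with the interquartile filter, beside CDKN1A, FAS and TMEM87B. The remaining increases, with log2 fold changes from 0.82 for AJM1 to 1.21 for a probe without a RefSeq name, included SHC1, an adaptor of receptor tyrosine kinases, at 0.83, STEAP3, a metalloreductase of endosomes, at 1.01, SEC22C at 1.03, the mitotic kinase NEK7 at 1.03, PEX39 at 1.05, TMEM50B at 0.96, IZUMO4 at 0.89 and the long noncoding RNA CEROX1 at 0.95.

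The cell cycle engine outside the proliferation lists shifted in both directions. On the list of CDK inhibitors and G1 cyclins 1 of 15 genes was called higher (CDKN1A) and 3 lower, where 0.0764% and 0.827% of all genes were; the same shares apply to the list counts that follow. Cyclin D1 (CCND1), which drives the G1 phase with CDK4 and CDK6, read 9.08, 9.38, 9.25 and 9.50 after si-SCRL and 7.97, 8.13, 7.92 and 8.31 after si-A2 (2.33-fold lower, adjusted p = 0.0018 in limma). The CDK4 and CDK6 inhibitor CDKN2C was 2.59-fold lower and RBL1, the pocket protein p107, 1.92-fold lower, while CDK4 itself stood at 0.10. Another probe of RBL1, with 0 si-A2 arrays well above background, gave a log2 fold change of -2.42.

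Called genes of nucleotide and chromatin lists were mostly decreases, and RRM2, HELLS, UHRF1, HMGB2 and TMPO are also on the proliferation lists. The medians of these lists lay near 0, at -0.14 for nucleotide synthesis, -0.12 for DNA methylation and Polycomb and -0.11 for chromatin remodelling. Among 31 nucleotide synthesis genes 1 was called higher and 2 lower: RRM2, the S phase subunit of ribonucleotide reductase, fell 7.34-fold from si-SCRL levels of 8.65 to 9.86 to si-A2 levels of 6.05 to 6.33, thymidine kinase TK1 fell 2.04-fold, and RRM2B rose as given above. HELLS, a chromatin remodeller needed for DNA methylation, was 3.67-fold lower and UHRF1, which guides the maintenance methyltransferase, 2.07-fold lower, so that with EZH2 3 of 22 genes of the DNA methylation and Polycomb list were called lower. HMGB2 was 4.14-fold lower and the linker histone H1-10 1.74-fold lower, the 2 called genes of 40 on the chromatin remodelling list. Of 48 repair genes outside recombination MDC1, a mediator at DNA breaks, was the only one called (2.55-fold lower). At the nuclear envelope TMPO and the importin KPNA2 were 2.60-fold and 1.89-fold lower, 2 of 39 genes measured.

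Single genes were called in lists that otherwise stood near 0. PSME3, a proteasome activator, was 2.50-fold lower, while the median of 39 proteasome genes was 0.02. SRXN1, which repairs peroxiredoxins, was 2.27-fold lower and its si-A2 arrays lay between 8.85 and 8.92, while the median of the 26 NRF2 and antioxidant genes was -0.0043. The transferrin receptor TFRC was 1.86-fold lower and the only called gene of 11 in iron handling. ARF1, a GTPase of Golgi coats, and SPCS3, a signal peptidase subunit, were 2.22-fold and 2.09-fold lower among 34 genes of ER to Golgi transport. The heparan sulfate proteoglycan SDC4 was 2.05-fold lower among 19 matrix receptor genes. Of 27 listed long noncoding RNAs SNHG16 was called, 2.01-fold lower. STMN1, a microtubule regulator, was 1.77-fold lower by its brightest probe, but 3 of its other probes gave log2 fold changes of 0.06, 0.14 and 0.72, so its direction is not settled. Among the named calls of the function lists, those lost most often over 18 alternative settings were H1-10 (lost in 13), TFRC (12), RBL1, SDC4, SNHG16, SPATA18 and STMN1 (11 each) and TK1 (10). STMN1 was also reversed in 1 setting, and EZH2 was lost in 11 of 17.

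**Figure D5:**
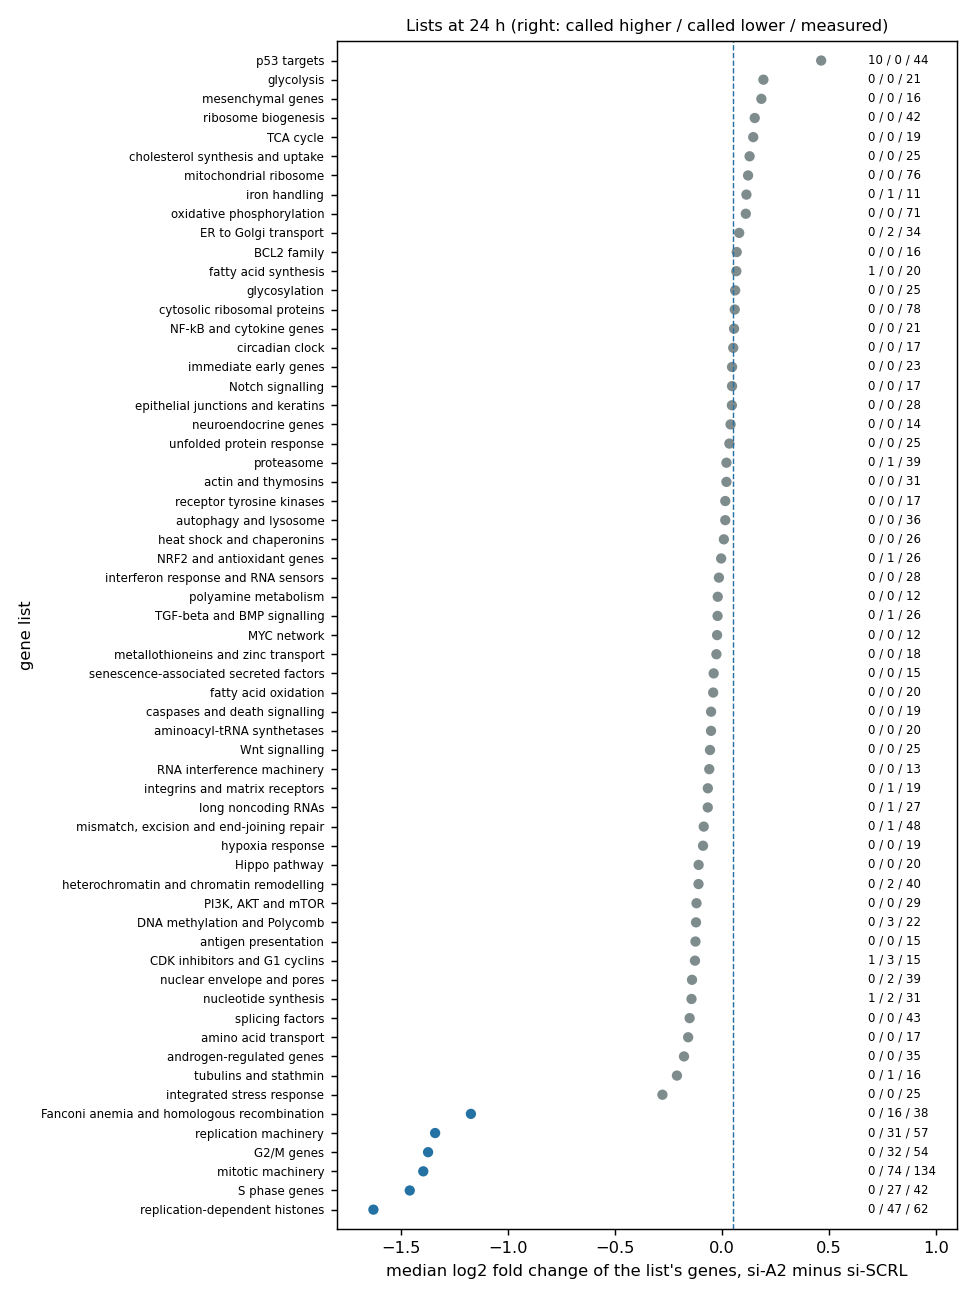
Each point is the median log2 fold change of si-A2 against si-SCRL at 24 h over the measured genes of 1 list, blue for the 6 proliferation lists and grey for the 55 others, with counts of genes called higher, called lower and measured at the right. The proliferation lists lie between -1.63 and -1.17, the p53 targets at 0.46 and the other 54 between -0.28 and 0.19, and the dashed line is the median of all genes.

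Lists without a called gene are described by their medians, since at 0.0764% of all genes called higher and 0.827% lower a count of 0 is near the background. The list of the integrated stress response, the program that ATF4 runs when translation is restrained, had the lowest median of the 55, at -0.28, with 20 of 25 genes below 0 (43.1% of all genes), 7 wholly below the si-SCRL arrays (4.15% of all genes) and 0 called. ATF4 stood at -0.59 and the asparagine synthetase ASNS at -0.82 (adjusted p = 0.037 and 0.10 in limma). Androgen-regulated genes had a median of -0.18 and 0 of 35 called. The prostatic acid phosphatase gene ACP3 came closest at -0.85 (adjusted p = 0.012 in limma), and KLK3, which encodes PSA, stood at 0.20. Ribosome biogenesis genes had a median of 0.15, with 7 of 42 below 0 (43.1% of all genes), 10 wholly above the si-SCRL arrays (3.09% of all genes) and 0 called, the helicase DDX21 being highest at 0.63 (adjusted p = 0.088 in limma). Splicing factors had a median of -0.15, with 34 of 43 below 0 and 0 called.

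The medians of the housekeeping machinery lay near that of all genes. The median was 0.06 over 78 cytosolic ribosomal protein genes, 0.12 over 76 mitochondrial ribosome genes and 0.11 over 71 genes of oxidative phosphorylation, with 0 called in each. In that order 25, 18 and 23 of these genes were below 0 (43.1% of all genes). Wholly above the si-SCRL arrays lay 1, 8 and 8 of them (3.09% of all genes), and wholly below lay 0, 0 and 2 (4.15% of all genes). In oxidative phosphorylation COX8A was lowest at -0.72 (adjusted p = 0.025 in limma). Both groups received duplex RNA, so a response to it that they share would not show in this contrast. Interferon response genes and RNA sensors, which can react to transfected duplex RNA, had a median of -0.01 and 0 of 28 called. Of these 28, 16 were well above background on all 8 arrays. The RNA interference machinery had a median of -0.06 and 0 of 13 called. The unfolded protein response (0 of 25), cholesterol synthesis and uptake (0 of 25), the MYC network (0 of 12) and autophagy and lysosome genes (0 of 36) likewise held no call. Single genes came nearer to the threshold: the Hippo effector YAP1 at -0.73 and the Notch target HES4 at -0.86 had adjusted p = 0.017 and 0.023 in limma.

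Promoters of the responding genes were searched, in RefSeq's 300-base windows on GRCh38.p14, for CCAAT, the CHR-type letters TTTGAA and TTCGAA, the E2F-type letters TTTCCCGC and TTTGGCGC and the TATA-type letters TATAAA, on both strands. RefSeq's table held a window for 241 of the 303 genes called lower, 20 of the 28 called higher and 14869 of all genes above the threshold. CCAAT was present in 58.9% of the genes called lower, 30.0% of those called higher and 36.4% of all. TTTGAA was present in 28.2% of the genes called lower and 11.8% of all, TTTCCCGC in 7.05% against 2.19% and TTTGGCGC in 5.39% against 0.894%. Among the 42 called histone genes with a window CCAAT was present in 88.1% and TATAAA in 66.7%, against 9.05% of all genes for TATAAA. Among the 94 called decreases outside the proliferation lists CCAAT was present in 44.7%, TTCGAA in 3.19% (1.66% of all genes), TTTCCCGC in 4.26%, TTTGGCGC in 4.26% and TATAAA in 7.45%. These shares are descriptions with no test, and a match is not a measured binding site.

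The windows of 4 genes with large changes are shown, 5′ to 3′ on the strand of the gene, with matches to the letters above in capitals (a reverse-strand CCAAT reads ATTGG and a reverse-strand TTTCCCGC reads GCGGGAAA). They are CLSPN (chr1:35769929-35770228, minus strand), H3C15 (chr1:149852358-149852657, plus strand) and ZNF367 (chr9:96418321-96418620, minus strand), the leading decreases on and off the lists, and CDKN1A (chr6:36678464-36678763, plus strand), the leading increase.
CLSPN: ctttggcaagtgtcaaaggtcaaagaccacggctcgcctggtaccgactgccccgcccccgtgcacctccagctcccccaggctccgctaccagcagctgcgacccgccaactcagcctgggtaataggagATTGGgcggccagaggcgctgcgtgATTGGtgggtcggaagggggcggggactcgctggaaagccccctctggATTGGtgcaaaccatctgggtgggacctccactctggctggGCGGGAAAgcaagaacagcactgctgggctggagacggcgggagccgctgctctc
H3C15: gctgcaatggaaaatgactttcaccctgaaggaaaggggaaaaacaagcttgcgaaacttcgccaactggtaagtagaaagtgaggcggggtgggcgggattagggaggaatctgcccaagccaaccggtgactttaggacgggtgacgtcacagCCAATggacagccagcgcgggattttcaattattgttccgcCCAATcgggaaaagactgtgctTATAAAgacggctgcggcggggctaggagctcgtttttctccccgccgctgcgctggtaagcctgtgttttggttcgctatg
ZNF367: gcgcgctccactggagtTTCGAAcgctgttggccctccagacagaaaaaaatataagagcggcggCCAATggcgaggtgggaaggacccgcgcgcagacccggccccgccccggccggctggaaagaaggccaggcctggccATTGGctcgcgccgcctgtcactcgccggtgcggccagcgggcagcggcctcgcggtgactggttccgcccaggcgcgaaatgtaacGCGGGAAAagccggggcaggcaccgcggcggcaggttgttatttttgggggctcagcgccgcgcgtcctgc
CDKN1A: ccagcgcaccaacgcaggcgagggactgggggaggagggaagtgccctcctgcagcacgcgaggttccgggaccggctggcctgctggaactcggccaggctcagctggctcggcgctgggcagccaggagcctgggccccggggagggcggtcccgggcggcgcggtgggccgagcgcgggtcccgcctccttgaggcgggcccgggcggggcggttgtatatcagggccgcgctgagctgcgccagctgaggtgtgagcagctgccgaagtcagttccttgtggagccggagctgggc
CLSPN holds 3 CCAAT matches and 1 TTTCCCGC match, all on the reverse strand. H3C15 holds 2 CCAAT matches and 1 TATAAA match. ZNF367 holds 4 matches, 2 of CCAAT, 1 of TTTCCCGC and 1 of TTCGAA. The CDKN1A window holds 0 matches to these letters.

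Arrays of si-A1, the siRNA against the neighbouring transcript TAPIR-1, were part of the same fit and allow the difference between the siRNAs to be tested for the named genes. In that contrast 0.308% of all genes were called. The TAPIR-2 probe was not among them. It read 4.95, 4.75, 4.68 and 4.19 after si-A1, which overlaps its si-A2 levels. Its si-A2 level minus its si-A1 level was -0.58 (adjusted p = 0.62 in limma). Among the 15 largest decreases outside the proliferation lists with a RefSeq symbol 5 were also called lower than after si-A1. NPC2 stood at 10.60 ± 0.14 after si-A1 (SD, n = 4), and the si-A2 level minus the si-A1 level was -2.66 (adjusted p = 0.00058 in limma). CERS6, BMPR2, CCSAP and MPZL3 differed from si-A1 by -1.87, -2.22, -1.78 and -1.41. ZNF367 differed from si-A1 by -0.13 and FAM111B by 0.23, neither of which passed the test. Of the 15 largest increases with a RefSeq symbol CDKN1A, BTG2 and TP53I3 were called higher than after si-A1, by 1.12, 1.33 and 1.22, while NDN differed by -0.05. PSME3, SPCS3 and SNHG16 were also called lower than after si-A1, at -1.48, -1.23 and -1.54. This contrast uses the same si-A2 arrays as the one against si-SCRL.

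At 48 h the same siRNAs were measured on the v3 array, so the values stand beside those at 24 h with no test of the change. With all 12 arrays 0 of 39300 genes (0%) were called by limma, with 1069 higher and 1583 lower at an unadjusted p below 0.05. Without si-A2 replicate 2, whose median intensity was 13.9 against 20.4 to 32.2 on the other 11 arrays, 167 of 37701 genes (0.443%) were called, 24 higher and 143 lower. Of the genes called at 24 h 317 were measured in that fit, 306 had the same sign and 63 were called in the same direction. Among decreases 285 of 291 kept their sign and 61 were called, and among increases 21 of 26 and 2. In that fit 48.3% of all genes were below 0. NPC2 stood at -1.97, CCSAP at -1.45, MPZL3 at -1.24 and CERS6 at -1.22, all called. CDKN1A stood at 1.21 (adjusted p = 0.018 in limma) and FAS at 0.80. SPATA18 at 1.93 and RRM2B at 0.87 were called. ZNF367 stood at -1.01 and CLSPN at -1.10, neither called, and TMEM87B stood at 0.11 (adjusted p = 0.88 in limma). Of the 15 largest increases with a RefSeq symbol at 24 h 14 were measured, of which 11 had the same sign. The TAPIR-2 probe stood at 0.23 (adjusted p = 0.71 in limma).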

How the data were processed

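The authors deposited scanner output of 24 one-colour arrays as intensity per spot (Feature Extraction 11.5.1.1) and a table of log2 values that the authors normalized by quantiles with R 3.4.3 and limma 3.34.8, which served as an alternative. From the intensities of the 24 h arrays, including si-A1, quantile-normalized log2 values were computed (R 4.3.3, limma 3.58.1, data.table, version 1.17.8). A probe was kept if 3 or more arrays exceeded the negative control mean by 3 SDs, and the brightest probe stood for a gene. RefSeq named 29033 of 50599 probes (57.4%), and others kept the name in the file. limma was fitted with an additive slide effect and p-values were adjusted by Benjamini-Hochberg. A call needed an adjusted p under 0.01 and a log2 change of 0.5 or more in either direction. A second fit added the methods' interquartile filter, a spread of 0.5 or more over the arrays. The normexp alternative used the median signal in place of the planned mean. Named genes were called increases with that filter, the 15 largest increases and 15 largest decreases outside the proliferation lists among called genes with a RefSeq symbol and no overlap between the groups, the 5 largest decreases of all, called members of function lists, extreme members of the other lists and genes near TAPIR-2. The members and lists were chosen with earlier results of these data known. The script was tested on simulated data. There 86% of log2 changes of -3 were called, but only 26% of those of -1 and 18% of those of 1. A change of that size can therefore go uncalled. Alternatives are given in the closing section. Some genes are not reported here. The study's methods removed 1 si-A2 array at 48 h for low signal. Arrays give no counts, so no counting interval applies.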

Additional observations from a re-analysis of the deposited data

Results flagged for a closer look

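Among the named genes 110 groups of 4 arrays were checked for a single array standing far from the others of its siRNA, and 8 (7.27%) held one, where chance gives about 1 in 20. BMPR2 read 5.66 in si-SCRL replicate 1 against 6.36 to 6.41 in the other control arrays. CERS6 read 10.08 in si-SCRL replicate 4 against 10.37 to 10.38, and 8.10 in si-A2 replicate 4 against 8.47 to 8.55. EZH2 read 1.70 in si-A2 replicate 3 against 1.58 on the others, all of them not well above background. FAM111B read 3.05 in si-A2 replicate 2 against 3.64 to 3.74. HMGB2 read 9.17 in si-SCRL replicate 3 against 7.86 to 7.97. SULF2 read 6.97 in si-A2 replicate 4 against 6.84 to 6.86, and UHRF1 read 8.64 in si-A2 replicate 3 against 8.37 to 8.38. The si-A2 and si-SCRL arrays had no overlap in any of these genes. For BMPR2, CERS6, EZH2, FAM111B and SULF2 this was a condition of their selection. HMGB2 and UHRF1 were named as called genes, nearly all of which lack overlap. The lack of overlap therefore cannot show whether the single arrays matter. The part that these single arrays play in the results was not tested beyond leaving them out.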

How the results depend on the processing

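The TAPIR-2 probe stayed below control and short of the threshold in every setting tried, from -1.22 to -0.62 with single arrays left out. The count of 331 genes fell to 152 with only the 2 compared groups in the fit, to 0 within each slide, and to between 211 (without si-A2 replicate 3) and 307 with single arrays left out. Of these, the 28 genes called higher became 64 with normexp, 53 with only probes well above background, 2 with only the 2 groups, and 13 to 34 with single arrays left out, with a fall of over 1.5 times without si-SCRL replicate 1 (16) and without si-A2 replicates 1 (16), 2 (15), 3 (18) and 4 (13). The 215 genes called with the interquartile filter became 392 with normexp (52 higher, 340 lower, so that the lower share went from 97.7% to 86.7%), 504 with only probes well above background (53 higher, 451 lower), 92 with only the 2 groups, 0 within each slide, and 110 (without si-A2 replicate 3) to 159 with single arrays left out, a fall of over 1.5 times for each array except si-SCRL replicate 3. The 28 genes called in function lists outside the proliferation lists became 47 with normexp, 5 with only the 2 groups, 0 within each slide, and 11 to 27 with single arrays left out, a fall of that size for si-SCRL replicates 2 and 4 and for every si-A2 array. normexp and the background filter tested 1578 and 4903 genes in place of 15186. Reversed signs were 0.032 for SCG2 with normexp and 0.26 for STMN1 with the median over probes. The medians of the interferon and NRF2 lists, near 0, changed sign with 75th percentile scaling, and those of the NRF2 and autophagy lists with normexp. The 48 h count of 0 became 167 without si-A2 replicate 2. The cause of these changes was not tested.

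Replicate numbers did not pair the arrays: deviations of same-numbered arrays correlated at 0.05, -0.15, -0.13 and 0.15. With the replicate number as a block 141 genes were called with the interquartile filter and 15 in the function lists, and 15 were called higher among all genes. The difference between slides in the si-A2 effect passed the adjusted p threshold in 0 of 36639 genes by limma, with 1064 (2.90%) at an unadjusted p below 0.05. The difference in level between the slides is a separate term of the fit and is not given here.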

Other observations

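Several genes on none of the lists had large decreases after si-A2, most of them also called against si-A1. They were chosen after their values were seen, and both contrasts use the same si-A2 arrays. YWHAE, which encodes the epsilon form of the 14-3-3 adaptor proteins, fell from 11.15 ± 0.18 (SD, n = 4) to 9.59 ± 0.28 (SD, n = 4), with a log2 fold change of -1.56 against si-SCRL and -1.69 against si-A1. YWHAH, the eta form, gave -1.57 and -1.68. YWHAEP1, a pseudogene copy of YWHAE whose signal may be shared with it, gave -1.48 and -1.60. ERG28, an endoplasmic reticulum protein of sterol synthesis, gave -1.70 and -1.83. The ETS factor ELK3 had 0 si-A2 arrays well above background, so its 3.68-fold decrease against si-SCRL is approximate. VAMP3, a SNARE protein of endosomes, gave -1.70 against si-SCRL (adjusted p = 0.00049 in limma), and its -1.19 against si-A1 did not pass the threshold (adjusted p = 0.011 in limma).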
